A study of Rattus norvegicus with 56 samples.

Results

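Brain endothelial and mural cell genes were followed across the hippocampus and the parietal cortex of young and aged rats after intermittent theta burst stimulation (iTBS), a burst-patterned kind of transcranial magnetic stimulation, or after sham treatment. The set was a list of 38 gene symbols of the cells of brain vessels, of which 36 had a probe on the array, out of 16581 symbols with a probe in all. Robo4 and Egfl7 had none. Each gene was read from its brightest probe, and all 36 genes passed the filter on dim probes in both regions.

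The wall of a brain capillary is a sheet of endothelial cells sealed by tight junctions, and this sheet is the blood-brain barrier. Because little passes between the cells, glucose, fatty acids and other solutes cross through dedicated transporters, while efflux pumps return drugs and toxins to the blood. Mural cells lie outside the endothelium. Pericytes share its basement membrane along capillaries, and smooth muscle cells ring the arterioles and set their diameter. Wnt signalling, angiopoietin and vascular endothelial growth factor receptors and SoxF transcription factors are known to build and maintain this barrier.

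The animals were 24 male Long-Evans rats, and hippocampus and cortex were taken from each one 48 h after treatment. Young animals were 6 to 7 months old, with 4 sham (Y_Sham) and 4 stimulated (Y_iTBS). Aged animals were 26 to 27 months old and had been divided by a water maze test of spatial memory into aged-unimpaired (AU, 4 sham and 5 iTBS) and aged-impaired (AI, 4 sham and 3 iTBS). All of them, sham included, were anaesthetised with isoflurane and dexmedetomidine and given a reversing agent, and in sham animals the coil was held away from the head, so that neither a conscious nor an untouched animal is among the controls. The tissue was dissected whole, and in such bulk samples fewer cells of a type and less RNA per cell cannot be told apart. Nothing in the labels says how the animals were housed or littered, and p-values measure the spread between these animals.

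Values are levels on the log2 scale, in which 0 is the mean of all probes of an array and a difference of 1 is a doubling. They are compared only within a probe, since the brightness of different probes is not on a common scale. Between 59.3% and 69.7% of the probes were well above background on the 56 arrays, and the number of arrays limits the precision. The genes that define brain endothelium were detected throughout. Cldn5, Slc2a1, Kdr, Vwf and the other members were well above background in 24 of 24 animals in both regions, apart from Sox17 in 19 animals of each region and Pglyrp1 in 23 animals in cortex, and no member was saturated. The arrays were scanned on 3 days. The first covered 15 animals and the later days 9, with every group in both. With 9 animals in 6 groups, some groups of the later days held a single animal. Estimates from the later days alone therefore rest on very few animals. Hippocampal and cortical samples mostly lay on different slides, 2 of the 7 slides holding both, so for most animals slide and region cannot be told apart. One repeat array, labelled cortex of animal AI_iTBS 2, resembled its own first array (r = 0.15) less than that of AI_Sham 2 (r = 0.70), over 241 probes chosen for varying between animals, and was left out.

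Promoter sequences were read from RefSeq (build GRCr8, 250 bases before to 50 bases after the gene start) for 24 of the 38 genes. Those of Acta2, Foxc1 and Tbx18 are shown because Acta2 with the other smooth muscle genes in cortex, and Foxc1 with Tbx18 in both regions, varied together closely between animals. Tagln and Myh11 had no entry. Acta2 encodes smooth muscle actin. Its promoter lies on chr1:241172454-241172753, minus strand, and the capitals mark 2 sites like the CArG box, the element bound by serum response factor in smooth muscle genes, each with at most 1 C or G among its 6 middle bases.
Acta2: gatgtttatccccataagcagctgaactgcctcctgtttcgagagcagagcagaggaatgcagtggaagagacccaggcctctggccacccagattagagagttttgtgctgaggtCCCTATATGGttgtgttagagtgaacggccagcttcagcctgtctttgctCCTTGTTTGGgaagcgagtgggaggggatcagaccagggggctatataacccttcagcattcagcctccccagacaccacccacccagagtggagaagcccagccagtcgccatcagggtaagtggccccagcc
The sites span positions −134 to −125 and −84 to −75 from the gene start. Foxc1 and Tbx18 encode transcription factors of pericytes and of the fibroblasts around vessels. Their promoters lie on chr17:32844051-32844350 and chr8:97559916-97560215, both on the minus strand, and the capitals mark the letters TGGGAA, read here on the opposite strand as TTCCCA, close to the start of each.
Foxc1: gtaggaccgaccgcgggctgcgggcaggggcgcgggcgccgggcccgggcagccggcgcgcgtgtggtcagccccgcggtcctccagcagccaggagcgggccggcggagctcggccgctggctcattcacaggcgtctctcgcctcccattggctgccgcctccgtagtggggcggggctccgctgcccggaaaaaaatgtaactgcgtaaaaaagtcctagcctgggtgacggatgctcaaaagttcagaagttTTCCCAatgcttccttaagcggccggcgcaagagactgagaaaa
Tbx18: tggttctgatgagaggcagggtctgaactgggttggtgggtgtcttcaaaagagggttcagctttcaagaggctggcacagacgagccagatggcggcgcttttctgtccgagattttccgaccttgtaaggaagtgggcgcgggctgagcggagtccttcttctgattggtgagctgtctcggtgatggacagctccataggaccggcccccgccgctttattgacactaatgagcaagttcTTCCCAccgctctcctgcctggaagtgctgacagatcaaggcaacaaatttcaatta
The motifs were chosen after the promoters had been read and were searched on both strands. CArG-like sites with at most 1 C or G in the middle were present in 6 of the 24 promoters (Ocln, Kdr, Tie1, Slco1a4, Acta2 and Tbx18) and in 9.42% of all 33469 promoters, and the strict box in 0 of the 24 and 1.64% of all. TGGGAA was present in 10 of the 24 and 25.7% of all, and AGGAAG, the core letters bound by Ets factors, in 12 of the 24 and 34.5% of all. A match describes the letters only.

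The first comparison asked whether the vascular genes differed between hippocampus and cortex of the same animal, in the 12 sham animals. Mural and endothelial genes were mostly higher in cortex. Tbx18, Foxc1 and Myh11 were 1.66 to 2.03-fold higher there, and the endothelial genes Pecam1 and Tek 1.33 and 1.35-fold. Among members that passed the test, Anpep alone was higher in hippocampus, by 2.49-fold at its brightest probe. In all, 11 of the 36 members passed an adjusted p of 0.05 (limma moderated test, Benjamini-Hochberg over 33770 probes), 1 higher in hippocampus and 10 higher in cortex. Among all probes 35.9% passed, 19.2% higher and 16.7% lower in hippocampus, so the share of members that passed was not above the background, while 28 of the 36 differences were below 0. The median member difference, hippocampus minus cortex, was −0.20, against 0.03 over all probes.

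**Figure D1:**
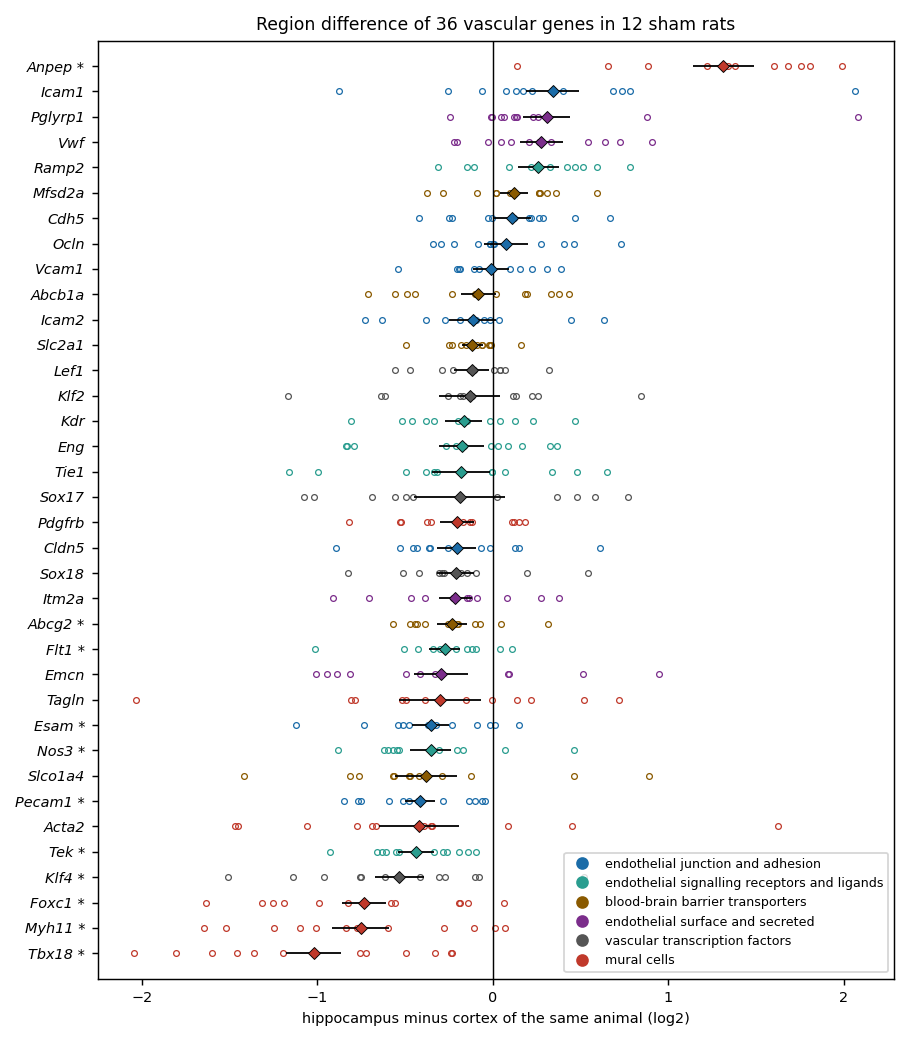
Difference of hippocampus minus cortex (log2) for the 36 members in the sham animals, ordered by size and coloured by role. Open circles are the 12 animals, diamonds the estimate with its standard error, and asterisks mark an adjusted p under 0.05. Of the estimates, 28 lie left of 0, and Anpep, Tbx18, Myh11 and Foxc1 lie farthest from it.

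Of the 7 mural members, Tbx18, a T-box factor of pericytes and smooth muscle, had the lowest hippocampal values relative to cortex. Its level in the sham hippocampus ran from 0.78 to 1.95 (median 1.11) and in cortex from 1.58 to 3.08 (median 2.16). It was higher in cortex in 12 of 12 sham animals, with a difference of −1.02 (SE 0.16, limma adjusted p = 2.661e-05), and the 2 ranges overlapped in part.
Foxc1, a forkhead factor of pericytes and meningeal cells, spanned 2.47 to 3.81 (median 2.81) in hippocampus and 2.94 to 4.43 (median 3.56) in cortex. It was higher in cortex in 11 of 12 animals, by −0.73 (SE 0.13, limma adjusted p = 0.0001046), and its second probe gave −0.62 (adjusted p = 0.0007983).
Myh11, the heavy chain of smooth muscle myosin, spanned 2.33 to 3.08 (median 2.69) against 2.56 to 4.16 (median 3.44), a difference of −0.75 (SE 0.16, limma adjusted p = 0.0009657) with 10 of 12 animals higher in cortex. The other contractile genes had the same sign without passing the test. Acta2 differed by −0.42 (limma adjusted p = 0.1654) and Tagln by −0.30 (adjusted p = 0.3449), and Pdgfrb, the receptor that recruits pericytes, by −0.20 (adjusted p = 0.1033).

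Anpep encodes aminopeptidase N, a surface enzyme of pericytes. Its brightest probe, designed on a predicted transcript, read 3.66 to 4.57 (median 4.46) in the sham hippocampus and 2.29 to 3.52 (median 2.98) in cortex, without overlap, and was higher in hippocampus in 12 of 12 animals (difference 1.31, SE 0.18, limma adjusted p = 4.397e-06). A second probe, on the curated transcript, gave −0.27 (limma adjusted p = 0.2142), and the mean over both probes 0.52 (adjusted p = 0.01418). The 2 probes disagree, and the hippocampal excess is a property of the first.

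Among the 8 junction and adhesion genes, 2 passed the test, both higher in cortex. Pecam1, an adhesion molecule at endothelial contacts, read 3.23 to 3.76 (median 3.45) in hippocampus and 3.52 to 4.30 (median 3.91) in cortex, and was higher in cortex in 12 of 12 animals (difference −0.42, SE 0.09, limma adjusted p = 0.0006343). Esam, another cell adhesion molecule of endothelium, differed by −0.35 (SE 0.11, limma adjusted p = 0.01342) in 10 of 12 animals. The tight junction genes Cldn5 (−0.21, adjusted p = 0.157) and Ocln (0.08, adjusted p = 0.6736) did not pass, and Vcam1, the leukocyte adhesion receptor, differed by −0.01 (SE 0.10).

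Of the 7 signalling genes, 3 passed. Tek, the receptor for angiopoietins, read 3.51 to 4.36 (median 4.06) in hippocampus and 4.13 to 4.95 (median 4.46) in cortex, with 12 of 12 animals higher in cortex (difference −0.44, SE 0.10, limma adjusted p = 0.001968). Flt1, a receptor for vascular endothelial growth factor, and Nos3, the endothelial nitric oxide synthase, differed by −0.27 (adjusted p = 0.02185) and −0.35 (adjusted p = 0.02288). The second probe of Flt1 gave −0.27 and did not pass (limma adjusted p = 0.2969). Kdr, the principal receptor of that growth factor, differed by −0.16 (adjusted p = 0.2322).
Of the 5 transporters only Abcg2, a drug efflux pump, passed (−0.23, limma adjusted p = 0.04266), and the glucose transporter Slc2a1 (−0.12), the pump Abcb1a (−0.08) and the lipid carrier Mfsd2a (0.12) did not. Klf4, a factor induced by blood flow, was the only one of the 5 transcription factors that passed, at −0.53 (SE 0.14, limma adjusted p = 0.004571), from 1.74 to 3.22 (median 2.30) in hippocampus and 1.98 to 3.97 (median 2.87) in cortex. None of the 4 surface and secreted genes passed. Vwf, the clotting factor stored in endothelium, gave 0.28 (adjusted p = 0.07779) at its brightest probe and −0.37 (adjusted p = 0.01313) at its second.

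**Figure D2:**
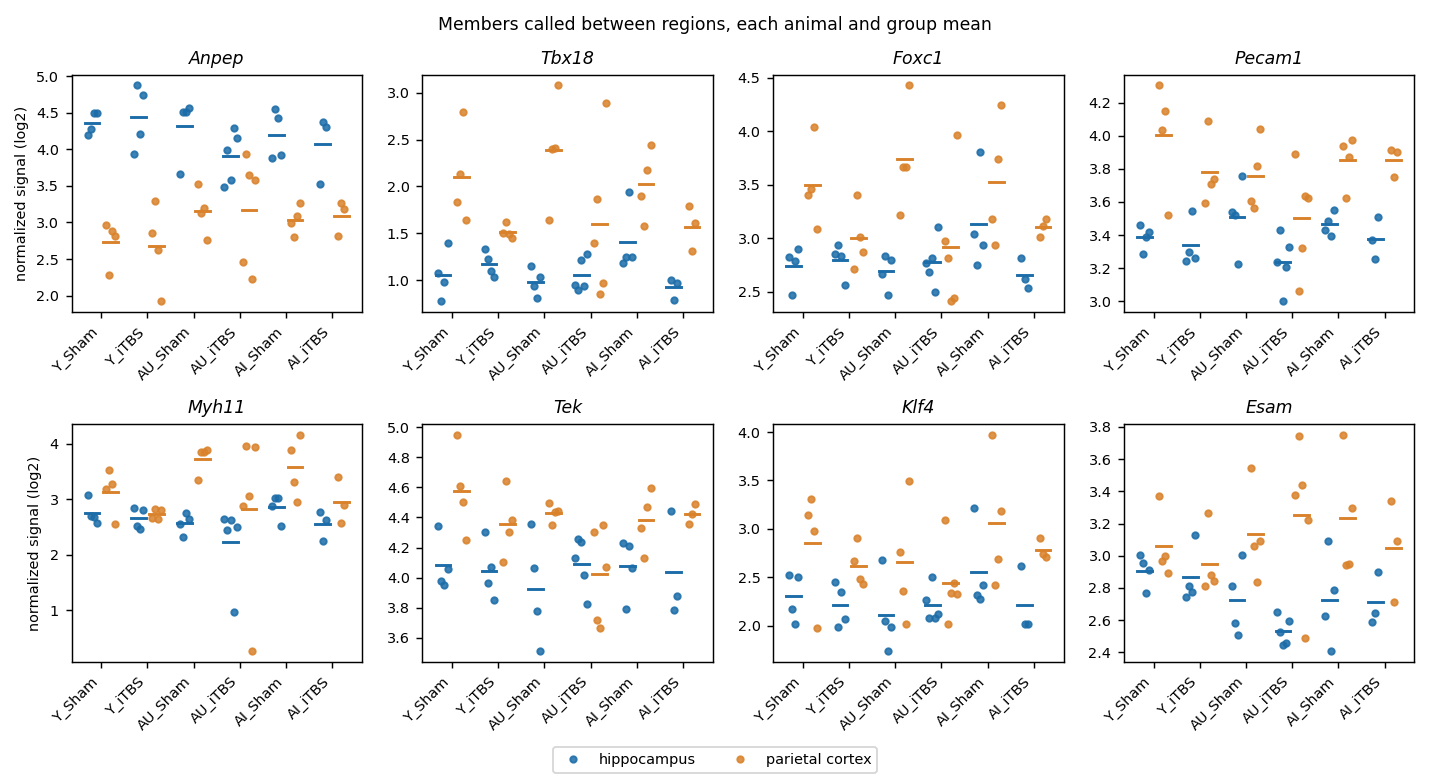
Level (log2 signal) of 8 members that passed the region test, with a point for each of the 24 animals and a bar for each group mean, by treatment group on the horizontal axis. Blue is hippocampus and orange is cortex. The cortex means of Tbx18 and Pecam1 lie above the hippocampal means in every group, and those of Anpep lie below.

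Further vascular genes passed the test in both directions, as did 35.9% of all probes (19.2% higher and 16.7% lower in hippocampus). Of 38 other endothelial genes, 5 were higher and 11 lower in hippocampus, among them Cd34, a sialomucin of endothelium, at −2.03 (SE 0.15, limma adjusted p = 1.288e-09) and Plvap, a protein of leaky endothelium, at −0.55 (adjusted p = 0.009869). Of 19 other mural genes, 2 were higher and 11 lower, including Heyl, a target of Notch signalling (−1.30, adjusted p = 2.547e-07), Mustn1 (−1.01, adjusted p = 3.864e-08) and Abcc9, a potassium channel subunit of pericytes (−0.65, adjusted p = 3.886e-06). Of 8 basement membrane genes 2 were higher and 3 lower, and of 15 genes of the Wnt pathway at the barrier 6 were higher and 2 lower.

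Markers of other cells moved with the region too, and their part in these differences was not tested. The 17 genes of perivascular and meningeal fibroblasts had 1 gene higher and 10 lower in hippocampus (Col3a1 −1.36, Slc22a6 −1.35, Foxc2 −1.34), and their mean level was 2.78 in the sham hippocampus and 3.50 in cortex. Foxc1 and Tbx18 are also active in these fibroblasts. Of 13 choroid plexus genes 9 were higher and 1 lower (Otx2 3.00, Folr1 2.24), with mean levels of 0.77 and −0.31, and of 7 erythrocyte genes 0 were higher and 4 lower. The mean level of oligodendrocyte genes, hippocampus minus cortex, was 0.42, of astrocyte genes 0.23 and of microglia and macrophage genes 0.17. For neuron genes it was −0.10, and over all members −0.16. Within the 15 animals of the first scan day, Anpep (1.46), Tbx18 (−1.10), Foxc1 (−0.81), Pecam1 (−0.36), Myh11 (−0.73) and Tek (−0.46) still passed, while Klf4 (−0.45, adjusted p = 0.08389) and Esam (−0.24, adjusted p = 0.1353) did not. In the 9 later animals 2 members passed, Esam among them (−0.68, adjusted p = 0.03901), and all 8 described in full kept their sign.

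The second comparison set the 16 aged against the 8 young animals, with sham and iTBS animals weighted equally. In hippocampus the endothelial factor Sox18 fell 1.21-fold and was the only one of 36 members to pass, against 0.511% of all probes and 0.0892% of all probes in that direction. At an unadjusted p under 0.05, 10 members were lower and 0 higher, against 7.85% and 5.46% of all probes, and 27 of 36 differences were below 0. The median member difference, aged minus young, was −0.14, against −0.01 over all probes.

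Sox18 belongs to the SoxF factors that specify endothelium. Its hippocampal level ran from 2.74 to 3.21 (median 2.96) in young animals and from 2.48 to 3.04 (median 2.66) in aged animals, and 12 of the 16 aged animals lay below every young one. The 4 others were AU_Sham 1 and 3 AI_Sham animals, between 2.83 and 3.04. The age difference in stimulated animals minus that in sham animals was estimated at −0.36 and did not pass (limma adjusted p = 0.8009). A larger drop in stimulated animals was thus not established. Sox18 did not pass in sham animals alone. The balanced difference was −0.28 (SE 0.06, limma adjusted p = 0.04344). This call was lost when any of 19 of the 24 animals was left out, for example −0.25 with adjusted p = 0.1328 without Y_iTBS 4, and within the first scan day (−0.33, adjusted p = 0.4235) and the later days (−0.15, adjusted p = 0.5491). It was also lost with the slide as a block (−0.27, adjusted p = 0.0678), with no filter on dim probes (−0.28, adjusted p = 0.06415) and with normexp background correction (−0.21, adjusted p = 0.1316). In cortex Sox18 ran from 2.38 in AU_iTBS 4 to 3.72 in AI_Sham 4, with young and aged animals intermixed.

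Itm2a, a membrane protein abundant in brain endothelium, came next. In hippocampus the young animals lay close together, from 4.92 to 5.18 (median 5.07), and the aged animals from 4.29 to 5.22 (median 4.66). Of the 16 aged animals 14 were below all young ones and AU_Sham 1 was above them. The difference was −0.38 (SE 0.09, limma adjusted p = 0.07361), which did not pass. In cortex it was nearly the same, −0.38 (SE 0.12, limma adjusted p = 0.1855), with 11 of 16 aged animals below all young ones. The angiopoietin co-receptor Tie1 differed in hippocampus by −0.48 (SE 0.14, limma adjusted p = 0.1685), with 10 of 16 aged animals below the young range of −0.08 to 0.43.
The remaining hippocampal genes at an unadjusted p under 0.05 were Lef1, the nuclear effector of Wnt signalling (−0.23), the receptors Flt1 (−0.21), Eng (−0.23) and Ramp2 (−0.17), and the adhesion genes Icam2 (−0.30), Esam (−0.21) and Cdh5 (−0.29), with adjusted p between 0.2049 and 0.3684. By role, 4 of 7 signalling genes, 3 of 8 junction genes, 2 of 5 transcription factors, 1 of 4 surface genes, 0 of 5 transporters and 0 of 7 mural genes were in this group.

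**Figure D3:**
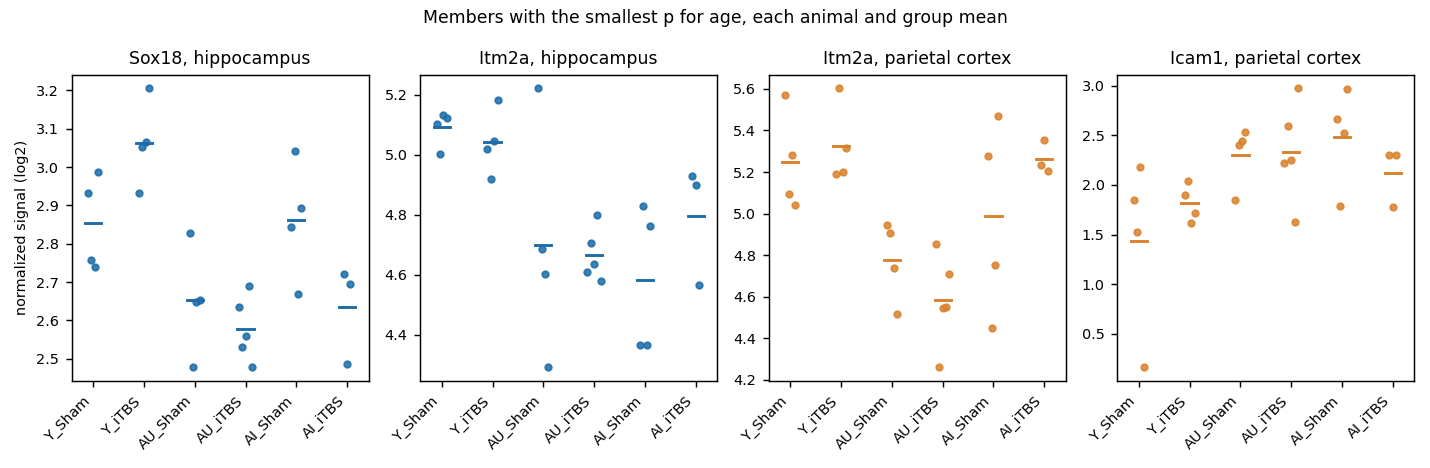
Level (log2 signal) in each animal, by treatment group, of Sox18 in hippocampus, Itm2a in hippocampus, Itm2a in cortex and Icam1 in cortex, with a bar at each group mean. Young Itm2a values in hippocampus lie between 4.92 and 5.18, above 14 of 16 aged animals, and Y_Sham 4 stands alone at 0.17 for Icam1 in cortex.

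In cortex 0 of 36 members passed (limma), against 0.402% of all probes, and 3 members had an unadjusted p under 0.05, against 14.3%. Icam1, an adhesion receptor for leukocytes, had the largest estimate, 0.69 (SE 0.21, limma adjusted p = 0.1916). Young animals ran from 0.17 to 2.18 (median 1.79) and aged animals from 1.62 to 2.97 (median 2.35), with 12 of 16 aged animals above all young ones. The lowest value was Y_Sham 4, without which the difference was 0.48 (adjusted p = 0.2465). Eng, a co-receptor of transforming growth factor signalling, differed by 0.36 (adjusted p = 0.3278). All 7 mural members were above 0 in cortex, from 0.05 for Pdgfrb to 0.61 for Acta2, with a median of 0.33, and none passed. Of all 36 members, 23 were above 0. Pairs of mural genes had a median r of 0.58 between animals in cortex, so the 7 signs are not separate observations.
With sham animals alone, 0 members passed in either region (limma), against 0.00308% of probes in hippocampus and 0.104% in cortex, and 2 members in each region had an unadjusted p under 0.05, against 8.18% and 9.46%. The estimates for Itm2a were −0.45 (SE 0.13, limma adjusted p = 0.479) in hippocampus and −0.37 (adjusted p = 0.5102) in cortex, for Tie1 in hippocampus −0.43 (adjusted p = 0.6076) and for Icam1 in cortex 0.97 (adjusted p = 0.3241), or 0.54 without Y_Sham 4. Whether the age difference depended on region was tested within animals, and 0 members passed (0.00296% of probes) and 1 had an unadjusted p under 0.05 (6.46%). The largest estimate, hippocampus minus cortex, was −0.85 for Icam1 (limma adjusted p = 0.7448), or −0.46 without Y_Sham 4, followed by Flt1 at −0.33.

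Genes of other cells that changed with age in hippocampus are given for comparison. The microglial genes Cd68, Trem2 and Itgam rose by 0.78, 0.49 and 0.49 (limma adjusted p = 0.000491, 0.000673 and 0.04958), 3 of 12 genes on that list. Of the 38 other endothelial genes 1 changed, the proteoglycan gene Spock2, which fell by 0.31 (adjusted p = 0.0301). None of the 19 other mural, 8 basement membrane, 15 Wnt or 17 fibroblast genes passed.

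The third comparison, iTBS against sham, was the purpose of the experiment. None of the 36 members passed an adjusted p of 0.05 in either region, in young, AU, AI or aged animals or in their mean (limma). Among all probes 0 passed in each of these comparisons except AI cortex, where 2 passed (0.00613%). At an unadjusted p under 0.05 the members numbered 2 in young (4.51% of all probes), 1 in AU (2.29%) and 4 in AI hippocampus (1.95%), and 1 in young (2.7%), 5 in AU (8.38%) and 0 in AI cortex (4.09%). For aged animals together they numbered 4 in hippocampus (2.48%) and 2 in cortex (2.92%). A selection rule rebuilt from the study's description, which combines a z-ratio, an analysis of variance and a false discovery rate, was applied to the same animals in 8 comparisons. It picked 0 members and between 0.0265% and 0.13% of all probes. In young animals the z-ratio of Abcg2 was −1.31 for hippocampus and −1.34 for cortex, and its analysis of variance p over all 6 groups was 0.0893 and 0.0764, so it met neither the limit of 1.5 nor that of 0.05. The description leaves parts of the arithmetic open, so these counts hold for the rule as rebuilt and say nothing about which genes the study's software picked.

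Abcg2 was examined because the study discusses it. In the young hippocampus the 4 sham animals read 3.42, 3.34, 3.50 and 3.50 and the 4 iTBS animals 3.08, 3.096, 2.62 and 3.07. The groups did not overlap, as in 1.54% of all probes in that direction, and Y_iTBS 3 lay below the rest. The estimate was −0.47 (SE 0.20, limma adjusted p = 0.9315), and −0.36 without Y_iTBS 3. In the young cortex sham animals read 3.86, 3.77, 3.97 and 3.59 and iTBS animals 3.06, 3.81, 2.92 and 3.44, which overlap (−0.50, SE 0.21, limma adjusted p = 1). In aged animals the estimates were −0.11 (SE 0.15) in hippocampus and −0.20 (SE 0.15) in cortex. The AI cortex had no overlap, from 3.16 to 3.57 in sham and 3.06 to 3.15 in 3 iTBS animals (1.77% of probes in that direction).

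Vcam1, through which leukocytes attach to inflamed endothelium, had positive estimates in AI animals in both regions. Sham AI animals read 5.61, 5.15, 5.38 and 5.44 in hippocampus, and AI_iTBS animals 6.11, 5.64 and 5.78. In cortex they read 5.30, 5.15, 5.56 and 5.55, and 5.65, 6.06 and 6.01. The groups overlapped in neither region, as in 1.32% and 2.35% of all probes in that direction. The estimates were 0.45 (SE 0.17, limma adjusted p = 1) in hippocampus and 0.52 (SE 0.25, limma adjusted p = 0.9999) in cortex. AU animals gave 0.20 (SE 0.15) in hippocampus and −0.36 (SE 0.22) in cortex, where the lowest values, 4.60, 4.81 and 4.98, were AU_iTBS animals. In aged hippocampus together the estimate was 0.33 (SE 0.11, limma adjusted p = 0.9778).

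Foxc1 and Tbx18 had the smallest unadjusted p in the mean over the 3 groups in cortex. Cortical Tbx18 read 1.83, 2.14, 2.79 and 1.64 in Y_Sham and 1.51, 1.62, 1.49 and 1.45 in Y_iTBS, without overlap, as in 0.952% of all probes in that direction. It read 1.65, 2.40, 2.41 and 3.08 in AU_Sham and 1.40, 1.87, 0.86, 0.98 and 2.88 in AU_iTBS, where AU_iTBS 5 was exceeded by AU_Sham 4 alone. AI_Sham animals read 1.90, 1.58, 2.18 and 2.44 and AI_iTBS animals 1.79, 1.31 and 1.62. The low values were thus mostly in stimulated animals, with overlap in both aged groups. The mean estimate was −0.61 for Tbx18 (SE 0.21, limma adjusted p = 0.9997), or −0.29 in the later scan days alone, and −0.58 for Foxc1 (SE 0.19, limma adjusted p = 0.9997).
Abcg2 (−0.30), Tagln (−0.82) and Myh11 (−0.64) were the others under an unadjusted p of 0.05 in that mean, 5 of 36 members against 2.54% of all probes. In the mean over hippocampus 2 members had such a p (2.81% of probes), Vcam1 (0.24) and Pecam1 (−0.14). The estimates for Foxc1 and Tbx18 there were −0.11 and −0.10, and the difference of the iTBS effect between regions was 0.47 for Foxc1 and 0.51 for Tbx18 (limma adjusted p = 0.9993 for both), the only members under an unadjusted p of 0.05 in that test (2.67% of probes).

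Fibroblast genes moved with these 2 genes in cortex, and their part was not tested. All 17 genes of the perivascular and meningeal fibroblast list had a lower estimate after iTBS in cortex. Of these, 15 had an unadjusted p under 0.05, led by Col1a1 (−1.21) and Col1a2 (−1.40), while 0 passed the adjusted test (limma). In the mean over the 3 groups in cortex, 2.54% of all probes had an unadjusted p under 0.05. The 17 genes were read from the same dissections, so they are not separate observations. The mean level of the list ran from 2.60 to 4.30 in Y_Sham and 2.28 to 2.67 in Y_iTBS cortex, from 2.98 to 4.80 in AU_Sham and 1.47 to 4.28 in AU_iTBS, and from 2.33 to 4.42 in AI_Sham and 2.33 to 3.02 in AI_iTBS.

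**Figure D4:**
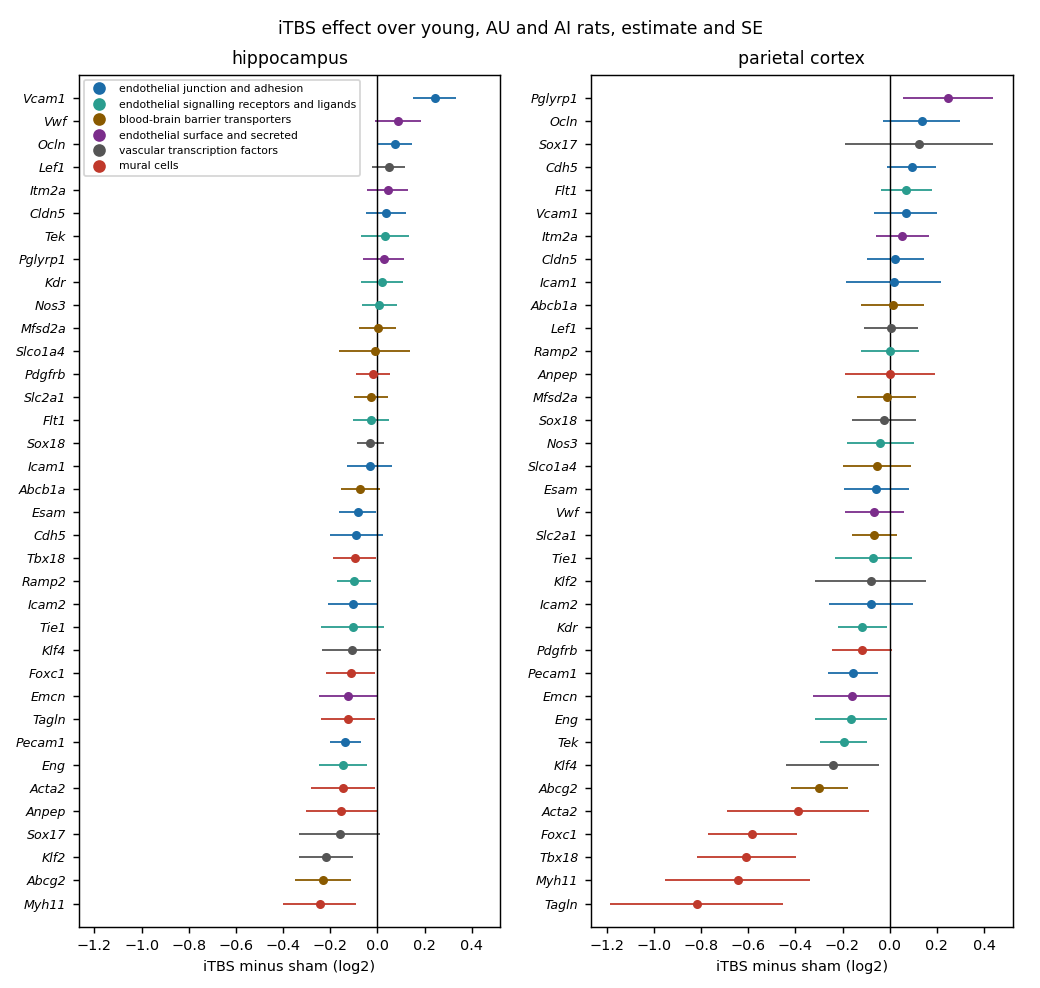
Estimated iTBS minus sham difference (log2, mean of the young, AU and AI groups, bars are the standard error) of the 36 members in hippocampus and cortex, ordered by size within each region and coloured by role. Foxc1, Tbx18, Tagln and Myh11 lie lowest in cortex, and none passed the adjusted test.

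None of the other estimates passed the adjusted test either. In AU cortex Pglyrp1, an innate immunity protein of brain endothelium, gave 0.92 (SE 0.31, limma adjusted p = 0.5783), with AU_Sham 1 at −2.22 and the 3 other sham animals between −0.38 and −0.01, and 0.42 without AU_Sham 1 or 0.13 in the first scan day. Cdh5, the cadherin of endothelial junctions, gave 0.49 there (SE 0.17, limma adjusted p = 0.5783), or 0.20 with the slide as a block, and in AU hippocampus −0.29 (SE 0.18), where its groups did not overlap (0.284% of probes in that direction). In AU hippocampus Pecam1 gave −0.27 (SE 0.10), or −0.18 with the slide as a block. Anpep gave −0.41 there, with −0.63 without AU_Sham 1 and 0.026 in the later scan days. In AI hippocampus Tbx18 gave −0.48 (SE 0.17), without overlap (1.04% of probes in that direction), and −0.30 without AI_Sham 3 or −0.17 in the later scan days.
Acta2 gave −0.39 in aged hippocampus, Sox18 0.21 in young hippocampus, Vwf −0.37 in young cortex and Eng −0.45 in AI cortex. In the later scan days alone Sox18 gave 0.09, Vwf −0.05 and Eng −0.89, and Acta2 −0.24. In aged cortex Foxc1 and Tbx18 each gave −0.62, or −0.33 and −0.19 in the later scan days. The aged iTBS effect minus the young one had 3 members under an unadjusted p of 0.05 in hippocampus (4.29% of probes), led by Sox18 (−0.36, limma adjusted p = 0.8009) and Acta2 (−0.74, or −0.21 in the later scan days), and 0 in cortex (3.21%), where Vwf (0.46) and Abcb1a (0.41) had the smallest p. With the slide as a block Vwf gave 0.004 and Abcb1a 0.21, Vwf gave 0.05 in the later scan days, and Abcb1a gave 0.11 in the first.

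AU_iTBS 4 stood apart from the other 23 animals in its smooth muscle genes, in both regions, and was singled out after its values were seen. In cortex Acta2 read 0.15, Tagln 0.10 and Myh11 0.27, against lowest values of 0.23, 1.93 and 2.56 and medians of 2.07, 3.47 and 3.28 in the others. In hippocampus they read 0.91, 2.32 and 0.97, against lowest values of 1.07, 3.05 and 2.25. A repeat array of its cortex resembled the first (r = 0.94). Among the 19 other mural genes it was lowest of 24 for 10 in hippocampus and 11 in cortex, including Rgs5 and Abcc9 of pericytes and Myl9, Mustn1 and Tpm2 of smooth muscle.
Without this animal the mean iTBS estimates in cortex were −0.58 for Tagln (SE 0.24), −0.43 for Myh11 (SE 0.17), −0.23 for Acta2 (SE 0.23), −0.54 for Foxc1 and −0.56 for Tbx18, all with limma adjusted p = 0.959. In AU cortex alone Tagln moved from −0.86 to −0.15 and Myh11 from −0.91 to −0.27. Y_Sham 4 held the next lowest value in cortex for Acta2, at 0.23, and for Myh11, at 2.56, close to the 2.57 of AI_iTBS 2, while 5 animals lay below its Tagln of 2.83.

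The fourth comparison set AI against AU sham animals, the contrast of memory status without stimulation. None of the 36 members passed in either region (limma), and 0% of all probes did. At an unadjusted p under 0.05 there were 3 members in hippocampus (4.05% of probes) and 1 in cortex (6.44%). Foxc1 and Tbx18 were first in hippocampus, at 0.44 and 0.42 (limma adjusted p = 0.9999 for both), or 0.22 and 0.24 without AI_Sham 3, which had the highest values of both (3.81 and 1.95). In cortex Pglyrp1 gave 0.71, or 0.20 without AU_Sham 1, and Emcn, a sialomucin of endothelium, 0.50.

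How the members varied between animals differed by region. The median residual SD between animals of a group was 0.22 in hippocampus and 0.34 in cortex (0.26 and 0.34 over all probes), and was larger in cortex for 32 of 36 members and 74% of all probes. Tagln had the widest cortical spread, 0.94 against 0.28 in hippocampus, followed by Sox17, Myh11 and Acta2. AU_iTBS 4 carried part of this spread, since without it the standard error of the mean iTBS estimate in cortex went from 0.37 to 0.24 for Tagln and from 0.31 to 0.17 for Myh11. Over the 24 animals, after subtraction of group means, the 630 pairs of members had a median r of 0.09 in hippocampus, with 381 above 0, and 0.35 in cortex, with 502 above 0. These values share arrays, scan days and dissections and are descriptions. Pairs of other probes were not examined, so whether the counts are particular to the members was not tested.

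Foxc1 and Tbx18 had r = 0.82 in hippocampus and 0.90 in cortex, and between 0.72 and 0.95 within either set of scan days. Tagln and Myh11 had 0.80 and 0.91, or 0.51 and 0.74 without AU_iTBS 4. Acta2 followed Myh11 (0.89), Tagln (0.88) and, of the endothelial genes, Icam1 (0.83) in cortex, each at 0.77 or more without that animal. In hippocampus Acta2 had 0.36 with Myh11, or 0.15 without that animal, and 0.86 and 0.70 within the first and later scan days. With Tagln it had 0.58, or 0.51 without that animal, and 0.85 and −0.04 within the first and later scan days. All 21 pairs of mural genes were above 0 in cortex (median 0.58) and 17 in hippocampus (median 0.27).
In cortex the endothelial genes Esam, Icam2 and Lef1 kept together (r from 0.895 to 0.908), and Cldn5 with Nos3 (0.89). In hippocampus Tek and Slco1a4, a transporter of organic anions and thyroid hormone, were closest (0.90), but 0.76 and 0.50 within the first and later scan days. Anpep, read here from its brightest probe alone, had 0.80 with Eng in hippocampus and 0.78 in cortex. Its 2 probes disagreed between regions, and further probes of these genes were not examined for likeness. Slco1a4 and Anpep had the lowest r of any pair in hippocampus (−0.80). Within the 15 animals of the first scan day it was −0.53, and in the later days 0.78. The later value rests on 9 animals in 6 groups, too few to decide whether the opposition held there.
By the same measure the members most like those described above were, for Sox18, Esam (0.60), Klf2 (0.57) and Icam2 (0.55), for Itm2a, Emcn (0.64), Icam2 (0.57) and Sox17 (0.53), for Abcg2, Tek (0.61), Kdr (0.57) and Slco1a4 (0.51), and for Vcam1, Tek (0.65), Slco1a4 (0.55) and Mfsd2a (0.40). These values are of hippocampus. In cortex they were, for Pecam1, Tek (0.81), Slco1a4 (0.73) and Klf4 (0.70), for Klf4, Abcb1a (0.86), Pecam1 (0.70) and Slc2a1 (0.69), and for Anpep, Vwf (0.80), Tie1 (0.78) and Eng (0.78).

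**Figure D5:**
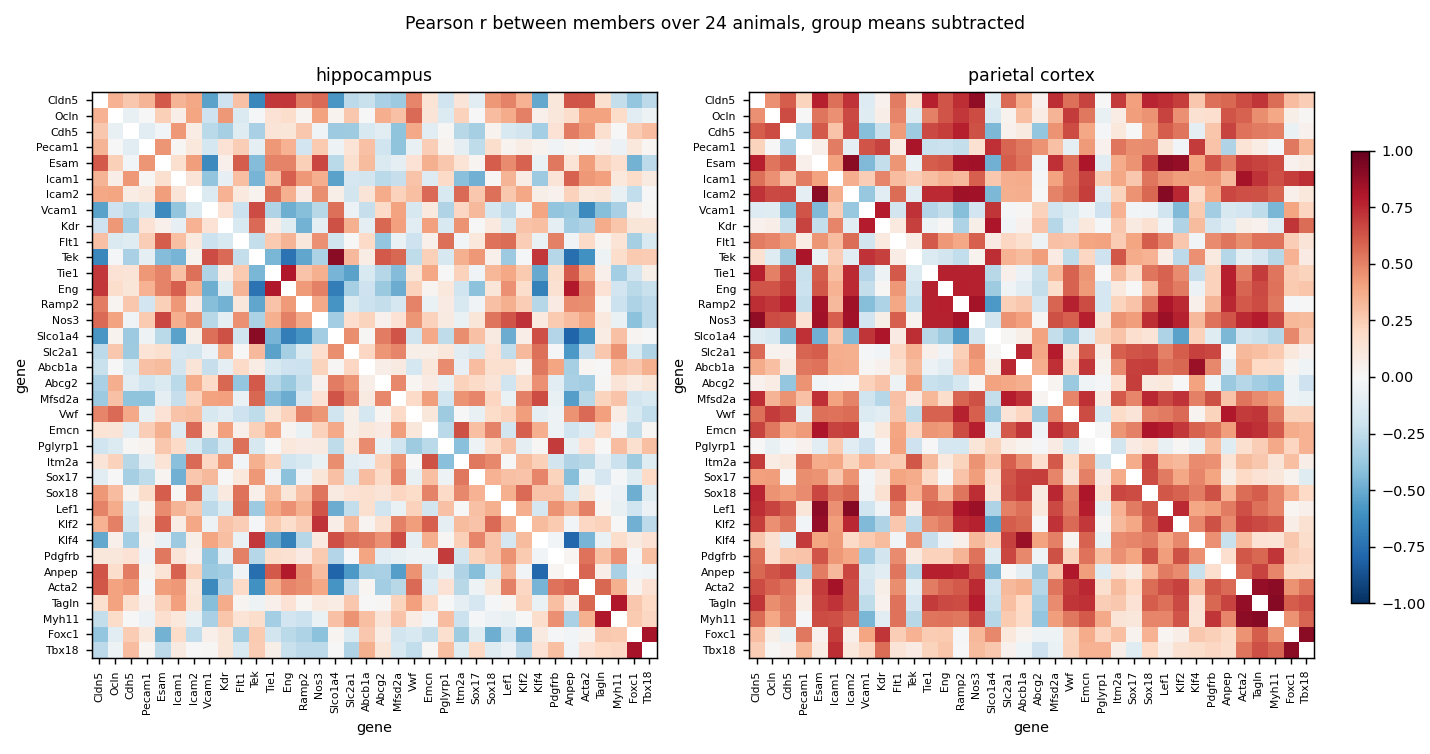
Pearson r (colour scale, blue below 0 and red above) between the 36 members over 24 animals after subtraction of group means, in hippocampus and in cortex, with genes in the same order by role. Red cells are more frequent in cortex (502 of 630 pairs above 0, against 381 in hippocampus), and the pairs Foxc1 with Tbx18 and Tagln with Myh11 are dark red in both maps. Pairs of other probes were not examined.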

How the data were processed

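RNA of hippocampus and parietal cortex of 24 rats was measured on 1-colour Agilent SurePrint G3 rat arrays (62976 features, 45598 distinct probes outside the controls), with 48 first arrays and 7 technical repeats. One array whose title and description name different groups was not used. The authors scanned the arrays with Agilent Feature Extraction 12.0.3.1, and the deposited intensity is its background-corrected processed signal. The authors also deposited a table of scores, made by z-score normalization of the log signal per array, which matched the z-score of the log2 signal within 0.005 on all arrays and served as an alternative. Its scale and centring are thereby known, with column medians between −0.07 and 0.03.

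Spots flagged as non-uniform or population outliers (267 to 1448 per array) were left out, copies were averaged per probe, and log2 values were z-scored per array and multiplied by the mean array SD of 4.08, after the study's z-score normalization. This scaling sets every array to one mean and spread, so a change common to all genes cannot be seen. An animal's repeat and first array of a region were averaged, except the AI_iTBS 2 cortex repeat. Probes well above background in at least 3 of 24 animals were fitted with limma 3.58.1 in R 4.3.3 as 6 group means per region (18 residual degrees of freedom), and the regions as differences within animals, which their descriptions identify. P-values were Benjamini-Hochberg adjusted over all probes tested, and called at 0.05. Sham and iTBS animals of the same number were not treated as pairs in the main fit. Gene names came from RefSeq by accession, for 46.3% of probes and 93.9% of those designed on curated transcripts.

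The members and gene lists were chosen with earlier results of these data known. Described in full were up to 8 called members per comparison, otherwise the 2 of smallest p and any under 0.01 (up to 4), Abcg2 in young animals, and up to 3 called genes of other lists, with Plvap and the animal AU_iTBS 4 added after their values were seen. The fit was tested on simulated data. Alternatives were quantile and 75th percentile scaling, normexp background (offset 50, on median signals, since the files used here hold no mean signals), the deposited z-scores, the dim-probe filter, probe averaging, treatment of repeats, slide, scan batch and replicate blocks, array weights, the study's rule and leaving out each animal.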

Additional observations from a re-analysis of the deposited data

Results flagged for a closer look

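In 122 groups of 4 or 5 animals examined, 6 held an animal whose gap to its nearest neighbour was a large part of the group's range, and chance flags about 1 group in 20. In hippocampus, Abcg2 in Y_iTBS 3 read 2.62 (nearest animal 3.07), Anpep in AU_Sham 1 read 3.66 (nearest 4.51), Tbx18 in AI_Sham 3 read 1.95 (nearest 1.25) and Klf4 in AI_Sham 1 read 3.22 (nearest 2.42). In cortex, both cases were AU_Sham 1, with Pglyrp1 at −2.22 (nearest −0.38) and Myh11 at 3.34 (nearest 3.85).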

How the results depend on the processing

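The count of called members in the region comparison (11) ranged from 10 to 14 when each animal was left out, and was 2 in animals of the later scan batches only, 20 with array weights and 19 over all 24 animals. In age with sham and iTBS balanced, the hippocampal count (1) was 2 with quantile normalization, 0 without the filter, in either set of scan batches and with the replicate block, 4 with the slide as a block, Sox18 not among them, and 4 with array weights, and 0 to 2 when each animal was left out. Array weights also gave 1 and 3 members in age among sham animals of hippocampus and cortex and 5 in the balanced cortex comparison. The AU cortex iTBS count moved off 0 in the later scan batches only, where some groups held a single animal. The cause of these shifts was not tested. The other counts, of iTBS, of AI against AU, and of the region difference by age or iTBS, were 0 under every alternative run and every animal left out. Anpep after iTBS in AU hippocampus changed sign in the later scan batches only (0.026, adjusted p = 0.9823). Of the differences of named members under other settings, 687 kept direction and side of the threshold, 17 fell below it, 6 rose above it and 1 reversed. Between regions the slide block used the scan batch, so the same values are counted there under both settings. With an animal left out, 1109 stayed and 19 fell below. Same-numbered sham and iTBS animals correlated between −0.28 and 0.39. Animals of different number were not compared, so these values cannot decide whether the numbers mark pairs. The replicate block changed no call but that of Sox18 (−0.26, adjusted p = 0.06684). Esam between regions was lost with the scan batch as a block (−0.21, adjusted p = 0.09254).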
